A study of Mus musculus with 6 samples.

Results

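The genes described here are the 5 vascular endothelial growth factor (VEGF) ligands of the mouse array, Vegfa, Vegfb, Vegfc, Vegfd and Pgf, together with their 3 receptor tyrosine kinases, Flt1, Kdr and Flt4, and the 2 neuropilin coreceptors, Nrp1 and Nrp2. Members were taken by name, as every probe set that the platform annotation gives to 1 of these genes alone. All 10 genes were found, on 25 of 45037 probe sets, among 18193 genes with a probe set of their own. RNA came from AD-MSCs, the mesenchymal stem cells derived from adipose tissue, here from the groin fat of adult C57BL/6 mice. Cells were sorted by flow cytometry into a subgroup with CD73 on the surface (CD73+ AD-MSCs, 3 arrays) and one without it (CD73- AD-MSCs, 3 arrays), and both were then grown in low sugar DMEM with serum to the fifth passage. No treatment of the cultures is named. CD73 is the product of Nt5e, an ectoenzyme that turns AMP into adenosine. Whether the 3 arrays of a subgroup stand for separate animals, sorts or cultures is not stated in the labels, and p-values therefore measure the spread among these arrays alone, which may be technical.

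VEGF ligands are secreted dimers that drive the growth of blood and lymphatic vessels. VEGF-A binds the receptors encoded by Flt1 (VEGFR-1) and Kdr (VEGFR-2), VEGF-B and placental growth factor (Pgf) bind VEGFR-1, and VEGF-C and VEGF-D are ligands of VEGFR-3, encoded by Flt4, which is best known from lymphatic endothelium. VEGF-C and VEGF-D are made as precursors that proteases trim to the active form, and neuropilins hold ligands at the cell surface and also serve as receptors of class 3 semaphorins. Stromal cells of fat are known mainly as a source of the ligands, and the receptors mainly as genes of endothelial cells, with VEGFR-1 also on macrophages.

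Among the ligands, the CD73+ subgroup had more Vegfd and less Vegfc than the CD73- subgroup, each by more than 2-fold and on all 3 of its probe sets. Nrp1 was higher by 1.35- to 1.47-fold on all 4 of its probe sets, and Nrp2 was higher on 1 of 4. No probe set of Vegfa, Vegfb, Pgf, Flt1, Kdr or Flt4 passed. In limma, with Benjamini-Hochberg adjustment over all probe sets and a threshold of 0.05, 8 of the 25 probe sets were higher and 3 were lower in CD73+ AD-MSCs, against 9.79% higher and 9.11% lower of all probe sets. Among probe sets at or above the median level, fitted alone, 9 of 22 family probe sets were higher and 4 were lower. Of all 22519 such probe sets, 5181 were higher and 5111 were lower. Read from the brightest probe set of each gene, 3 of the 10 members were higher and 1 was lower, against 10.1% and 12.6% of all genes. The values of the 2 subgroups did not overlap for 7 of the 10 members, against 40.8% of all genes. The median log2 difference, CD73+ minus CD73-, was 0.053 over the members and -0.018 over all genes. In RNA from a whole culture, fewer cells that carry a transcript and less of it in each cell cannot be told apart.

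All levels are log2 signals after RMA (robust multi-array average), on which a difference of 1 is a doubling, and differences between subgroups are taken within a probe set. Probes differ in how strongly they bind, so the share of all probe sets that lie below one, given for some genes, tells only how bright that probe set is and does not rank the transcripts of different genes. The array medians lay between 5.28 and 5.37. Nt5e itself was higher by 0.88 in the CD73+ subgroup on the brightest of its probe sets (adjusted p = 0.0218 from limma) and did not pass on the 2 others. That call ended without CD73+ replicate 1 (adjusted p = 0.0763 from limma), CD73+ replicate 3 (0.0563) or CD73- replicate 3 (0.0569). The 12 poly-A control probe sets, which read bacterial transcripts that are usually spiked into a sample, averaged 7.76 ± 0.068 (SD, n = 3) on the CD73+ arrays and 8.69 ± 0.042 (SD, n = 3) on the CD73- arrays. Scaling each array to them moves the median of all probe sets to 0.93, so every direction here is relative to the deposited scale. The log2 ratio of the beta-actin probe set near the transcript's end over the one near its start was 0.084 ± 0.015 (SD, n = 3) on the CD73+ arrays and 0.19 ± 0.028 (SD, n = 3) on the CD73- arrays, and its part in the results was not tested.

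**Figure D1:**
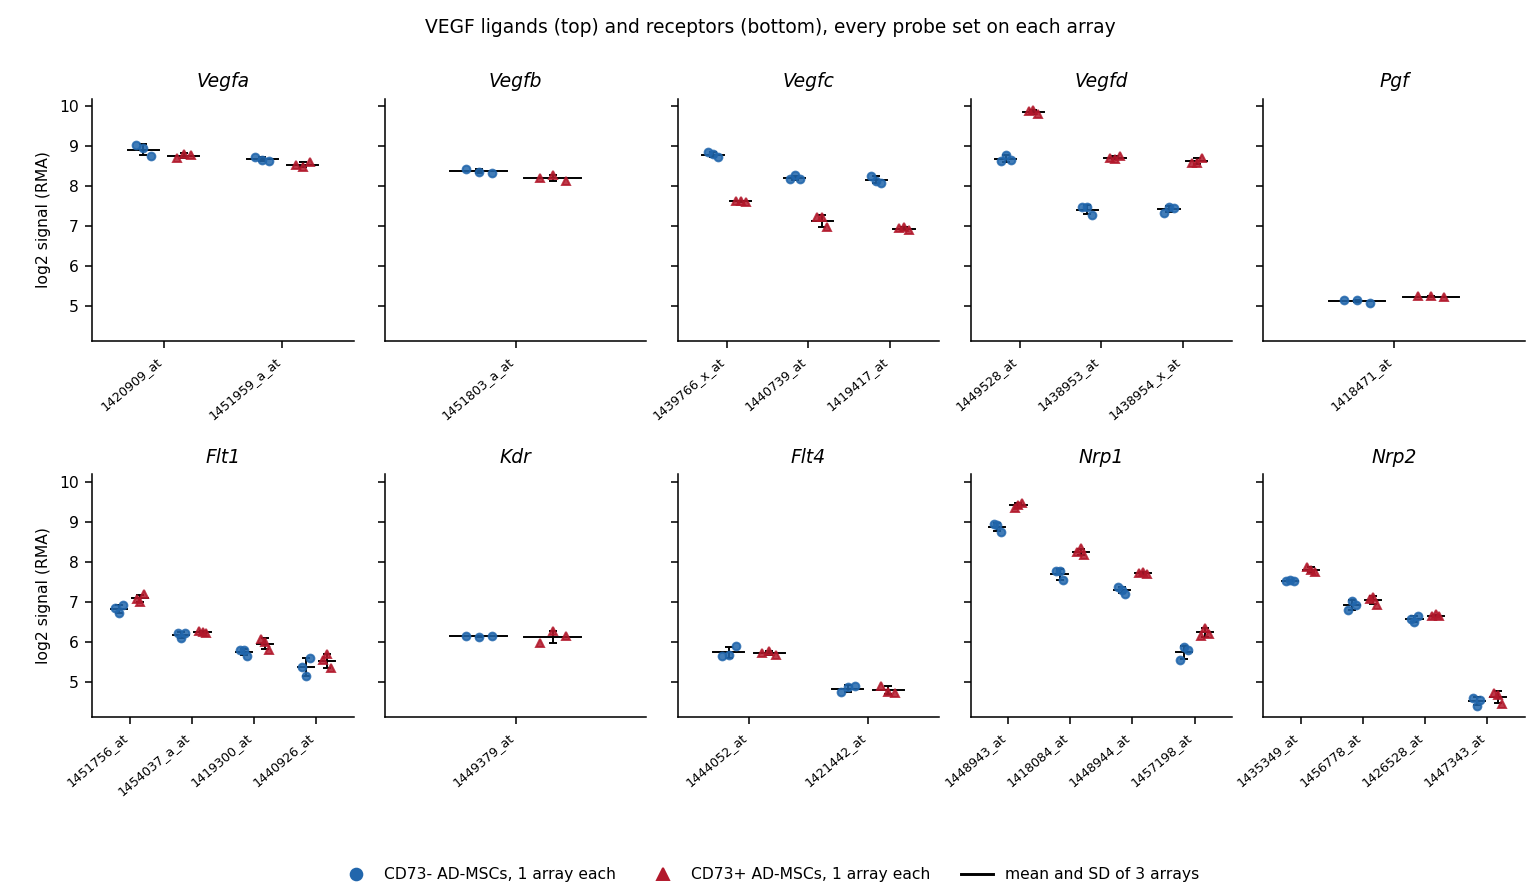
Log2 signal (vertical axis) of each VEGF family probe set (horizontal axis) on every array, with circles for CD73- and triangles for CD73+ AD-MSCs and black lines for the mean and SD of 3 arrays. The triangles lie below the circles on all 3 Vegfc probe sets and above them on all 3 Vegfd and all 4 Nrp1 probe sets.

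Vegfc, which encodes the main growth factor of lymphatic vessels, had log2 levels of 7.63, 7.62 and 7.61 in CD73+ replicates 1 to 3 and of 8.84, 8.80 and 8.72 in CD73- replicates 1 to 3 on its brightest probe set. The subgroups did not overlap, and the gap was far wider than the spread within either. The level averaged 7.62 ± 0.010 (SD, n = 3) on the CD73+ arrays and 8.79 ± 0.060 (SD, n = 3) on the CD73- arrays. It fell by 1.17 on the log2 scale (standard error 0.057, adjusted p = 9.46e-05 from limma), so that CD73- AD-MSCs had 2.24 times the signal (95% interval 2.05 to 2.46). The name of this probe set ends in _x_at, the manufacturer's mark for probes that may also bind other transcripts. The 2 other Vegfc probe sets, without that mark, fell by 1.06 and 1.21. On the first of these CD73+ replicate 3, at 6.97, lay below CD73+ replicates 1 and 2, at 7.22 and 7.24, while the CD73- arrays lay between 8.17 and 8.27. Only 17 of 18193 genes had a larger fall.

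Vegfd, whose product is the closest relative of VEGF-C and which in mice signals through VEGFR-3, moved the other way. On its brightest probe set it had 9.88, 9.89 and 9.80 in CD73+ replicates 1 to 3 and 8.62, 8.79 and 8.66 in CD73- replicates 1 to 3. The lowest CD73+ array was thus above the highest CD73- array by many times the spread of either subgroup. The level averaged 9.86 ± 0.051 (SD, n = 3) on the CD73+ arrays and 8.69 ± 0.087 (SD, n = 3) on the CD73- arrays, a rise of 1.17 (standard error 0.066, adjusted p = 0.000132 from limma) or 2.25-fold (95% interval 2.02 to 2.50). Its other probe sets rose by 1.30 and 1.20, and on both all CD73+ arrays lay at 8.58 or above and all CD73- arrays at 7.48 or below. Only 43 genes had a larger rise.

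Because both ligands were read on the same array, their log2 ratio was also compared array by array. The log2 ratio of Vegfd over Vegfc was 2.25, 2.27 and 2.19 in CD73+ replicates 1 to 3 and -0.22, -0.01 and -0.06 in CD73- replicates 1 to 3. The zero of this ratio has no meaning, since the probe sets differ, but its shift between subgroups does not depend on the scaling of the arrays. It was higher by 2.33 in CD73+ AD-MSCs, or 5.04-fold. Of the 4 such ratios computed, Vegfd over Vegfa was higher by 1.31, Vegfa over Vegfc by 1.02 and Nrp1 over Nrp2 by 0.27. In each the 3 CD73+ values lay above the 3 CD73- values. For Vegfd over Vegfc this had to follow, since every CD73+ array had more Vegfd and less Vegfc than every CD73- array. A two-sided exact permutation test gave p = 0.1 for each ratio, the smallest that 3 arrays against 3 allow. After adjustment over the 4 the p-value was 0.1. No outcome of this test could pass the threshold, so it cannot decide whether a ratio differed.

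The stretches before the starts of Vegfc and Vegfd are shown because these ligands moved in opposite directions, and that of Nrp1 because it rose with Vegfd. They are the 250 bases before the RefSeq start on build GRCm38.p6, 5′ to 3′ on the plus strand, which is the gene's strand for all 3. Vegfc lies at chr8:54077282-54077531, Vegfd at chrX:164373272-164373521 and Nrp1 at chr8:128358823-128359072. Capitals mark every match, on either strand, to the motifs searched, which were the core of the hypoxia response element (ACGTG or GCGTG), the GC box (GGGCGG), the TATA box (TATAAA), an AP-1 site (TGANTCA), a TEAD site (GGAATG) and the interferon response element (GAAA, any 2 bases and GAAA again).
Vegfc: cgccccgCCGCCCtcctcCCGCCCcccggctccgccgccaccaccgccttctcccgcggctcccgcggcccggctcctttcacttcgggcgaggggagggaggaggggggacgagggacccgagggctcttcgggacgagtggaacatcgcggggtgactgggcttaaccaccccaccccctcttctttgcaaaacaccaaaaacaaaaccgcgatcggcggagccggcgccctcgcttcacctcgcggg
Vegfd: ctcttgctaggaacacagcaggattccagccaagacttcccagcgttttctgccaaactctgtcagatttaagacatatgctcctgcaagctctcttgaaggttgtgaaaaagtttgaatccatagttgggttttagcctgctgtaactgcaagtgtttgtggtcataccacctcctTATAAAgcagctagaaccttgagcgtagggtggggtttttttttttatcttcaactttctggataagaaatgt
Nrp1: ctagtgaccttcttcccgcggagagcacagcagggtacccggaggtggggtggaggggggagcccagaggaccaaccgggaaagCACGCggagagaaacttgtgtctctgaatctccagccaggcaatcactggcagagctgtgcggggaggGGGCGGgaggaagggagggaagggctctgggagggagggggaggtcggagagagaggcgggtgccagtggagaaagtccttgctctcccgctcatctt

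The Vegfc stretch was rich in CpG and the Vegfd stretch poor in it. Vegfc had 30 CpG pairs and 71.6% G or C, with 94.1% of 32851 such windows holding fewer CpG pairs, whereas Vegfd had 2 CpG pairs and 42.4% G or C, with 18.8% of windows holding fewer. The median window had 6 CpG pairs and 52.4% G or C. The members not shown had 7 to 32 CpG pairs per window. Nrp2, which was higher, had the 32, with 5 GC boxes. Vegfa, which did not pass, had 11 and 7 in its 2 windows. The capitals in Vegfc are 2 GC boxes, a motif in 32.7% of windows, and the capitals in Vegfd are 1 TATA box, a motif in 12.4%. Nrp1 had 11 CpG pairs, 1 GC box and 1 GCGTG, which 28.2% of windows hold. No ACGTG (16.6% of windows), TGANTCA (6.75%), GGAATG (12.6%) or interferon response element (2.98%) was found in these 3 stretches. These matches describe letters in a short window, and nothing here measured binding at them.

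Vegfa, the ligand that gave the family its name and a target of hypoxia signaling, had its brightest probe set at 8.70, 8.81 and 8.78 in CD73+ replicates 1 to 3 and at 9.02, 8.95 and 8.76 in CD73- replicates 1 to 3. CD73- replicate 3 lay among the CD73+ arrays, so the subgroups overlapped. The log2 difference was -0.15 (95% interval -0.33 to 0.039, adjusted p = 0.275 from limma). The other Vegfa probe set had a difference of -0.13 (95% interval -0.27 to 0.013, adjusted p = 0.207 from limma), with no overlap, at 8.49 to 8.60 in CD73+ and 8.63 to 8.73 in CD73- AD-MSCs. A rise of more than 1.03-fold lies outside both intervals on the deposited scale, which are not adjusted for the number of probe sets.

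Vegfb, a ligand of VEGFR-1 linked to fatty acid uptake, had 8.20, 8.27 and 8.12 in CD73+ and 8.43, 8.36 and 8.33 in CD73- replicates 1 to 3 on its only probe set. The subgroups did not overlap, but the difference of -0.17 (95% interval -0.32 to -0.023) did not pass (adjusted p = 0.113 from limma). It passed with a filter on dim probe sets (adjusted p = 0.0372 from limma) and with a trended, robust prior (adjusted p = 0.0345 from limma). Pgf, the placental growth factor, lay near the array medians, at 5.25, 5.25 and 5.23 in CD73+ and 5.15, 5.15 and 5.09 in CD73- replicates 1 to 3. These values did not overlap either, and the difference of 0.11 (95% interval -0.0092 to 0.24) did not pass in limma (adjusted p = 0.198). It passed with an ordinary t statistic in place of limma (adjusted p = 0.0363). With that statistic 4 members in all were called higher.

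**Figure D2:**
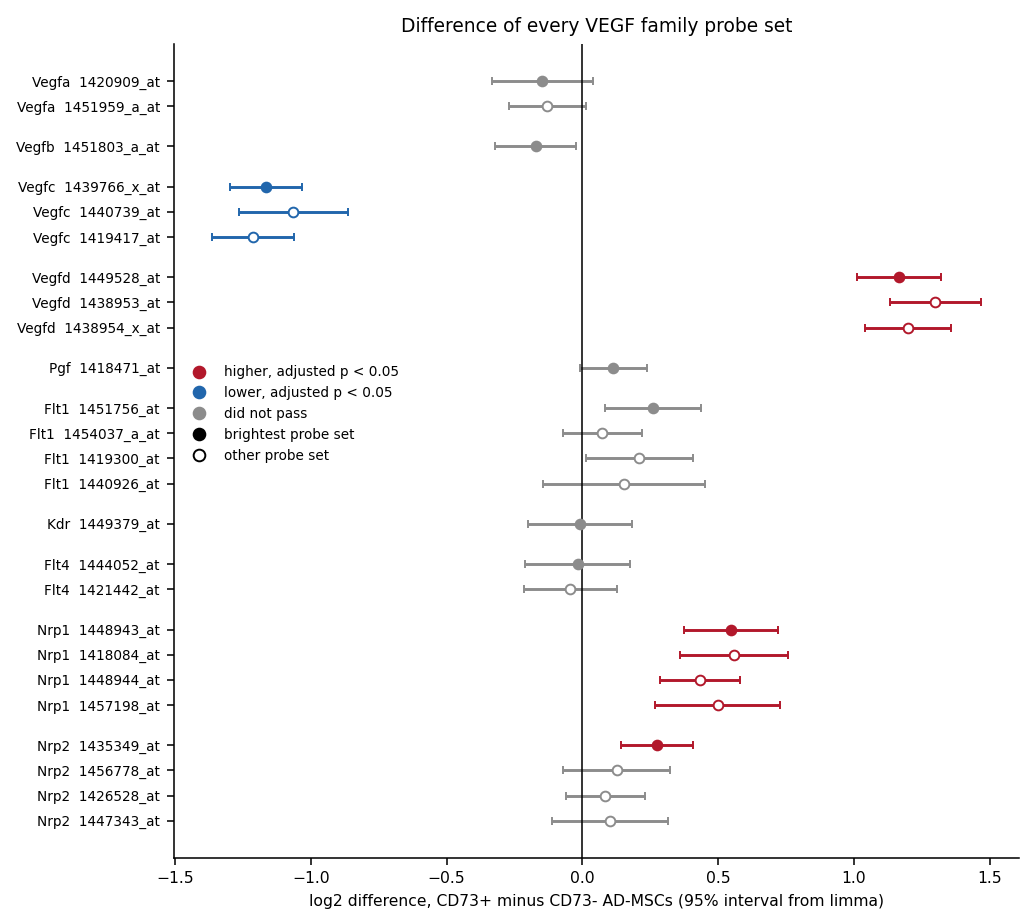
Log2 difference, CD73+ minus CD73- AD-MSCs (horizontal axis), of each of the 25 VEGF family probe sets (vertical axis), with 95% intervals from limma over 3 arrays per subgroup, filled circles for the brightest probe set of a gene and open ones for the others. The Vegfc points lie between -1.21 and -1.06, the Vegfd points between 1.17 and 1.30 and the Nrp1 points between 0.43 and 0.56, while those of the receptor kinases lie between -0.045 and 0.26.

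Of the receptor kinases, Flt1 came closest to the threshold. On its brightest probe set it had 7.07, 7.01 and 7.19 in CD73+ and 6.84, 6.72 and 6.92 in CD73- replicates 1 to 3. These did not overlap, and the difference of 0.26 (95% interval 0.081 to 0.44) had an adjusted p of 0.0535 from limma. It did pass once CD73- replicate 3 was left out (0.31, adjusted p = 0.0443 from limma), with a filter on dim probe sets (adjusted p = 0.018 from limma), with a trended, robust prior (0.0224) and with array weights (0.0238). The 3 other Flt1 probe sets had differences of 0.074, 0.21 and 0.15. None of them passed, although the second in that order did so by a small margin without CD73+ replicate 3 (adjusted p = 0.04997 from limma).

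Kdr, the main signaling receptor of VEGF-A, had 5.98, 6.27 and 6.14 in CD73+ and 6.16, 6.12 and 6.14 in CD73- replicates 1 to 3 on its only probe set. The CD73- arrays lay inside the range of the CD73+ arrays, and the difference was -0.0090 (95% interval -0.20 to 0.18, adjusted p = 0.961 from limma). Flt4, the receptor that VEGF-C and VEGF-D share, had 5.73, 5.78 and 5.67 in CD73+ and 5.64, 5.67 and 5.91 in CD73- replicates 1 to 3 on its brightest probe set. The subgroups overlapped, with a difference of -0.018 (95% interval -0.21 to 0.18, adjusted p = 0.922 from limma). Its second probe set had -0.045 and was dimmer than most, with 42.1% of all probe sets below it.

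The receptors are also genes of endothelial cells and macrophages, so the markers of those cells were read on the same arrays. Of 19 measured endothelial and lymphatic endothelial markers, 1 was higher and 1 was lower, where 10.1% and 12.6% of all genes were, with a median difference of 0.0096, and their summed signal had a log2 range of 9.34 to 9.57 in CD73+ and 9.22 to 9.32 in CD73- AD-MSCs. The higher one was Ecscr, a surface protein of endothelial cells, which rose by 0.82 (adjusted p = 0.00135 from limma). The lower one was Lyve1, a lymphatic hyaluronan receptor, which fell by 0.51 to 4.06 ± 0.19 (SD, n = 3), below the array medians. The Lyve1 call ended with the ordinary t statistic in place of limma (adjusted p = 0.0590). Of the 19, 16 were dimmer than the median probe set, so the few bright ones weigh most in the summed signal. Among these Ecscr averaged 7.46 on the CD73+ and 6.64 on the CD73- arrays, and the sum was not taken without it. The defining endothelial genes Cdh5, Pecam1, Tek, Tie1 and Vwf had between 10.6% and 38.9% of all probe sets below them and did not pass, while the brightest of the list, Ecscr, Egfl7 and Mmrn2, had 69.8%, 69.2% and 53.5%. Of 15 macrophage and blood markers, 3 were higher and none was lower, where 10.1% and 12.6% of all genes were. They were Cd53, a leukocyte tetraspanin, at 0.60, Cd14, a lipopolysaccharide coreceptor, at 0.50, and Csf1r, the receptor of the macrophage growth factor CSF-1, at 0.49 (adjusted p = 0.00777 from limma). Cd53 passed on 1 of 2 probe sets. The summed signal of the 15 markers had a log2 range of 9.16 to 9.26 in CD73+ and 8.95 to 9.08 in CD73- AD-MSCs. The median difference of the 15 was -0.015, and 8 of them were dimmer than the median probe set. The sum includes the 3 higher genes and was not taken without them. Ptprc, which encodes CD45, and Adgre1 did not pass, at -0.13 and 0.077. The part of these markers in the receptor values was not tested.

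Of 11 measured stromal markers, 6 were higher and none was lower in CD73+ AD-MSCs, where 10.1% and 12.6% of all genes were. They were led by S100a4, a calcium-binding protein of fibroblasts, at 1.03 and Col1a1, a chain of collagen I, at 0.85. The median difference of the 11 was 0.36, the largest of the 10 lists. Their summed signal had a log2 range of 15.29 to 15.31 in CD73+ and 14.85 to 14.88 in CD73- AD-MSCs. Thy1, Cd44, Itgb1 and Vim were each brighter than 93.6% of all probe sets or more, whereas Eng was brighter than 62.4% and Fap, a protease of activated fibroblasts, than 15.2%. No mural cell marker of 10 passed, and the smallest p-values belonged to Mcam, with a difference of 0.25, and Rgs5, with 0.32 (adjusted p = 0.0528 and 0.0726 from limma). Mcam passed with cyclic loess (adjusted p = 0.0450 from limma), the filter on dim probe sets (0.0173), the trended prior (0.0165), array weights (0.0287) and without CD73- replicate 1 (0.0282), and Rgs5 without CD73+ replicate 3 (0.0448). The count of higher mural markers then reached 2, with array weights or without CD73+ replicate 3.

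Nrp1, the coreceptor of VEGF-A and of semaphorin 3A, had 9.34, 9.42 and 9.48 in CD73+ and 8.94, 8.91 and 8.75 in CD73- replicates 1 to 3 on its brightest probe set. Every CD73+ array lay above every CD73- array here and on its 3 other probe sets. The level averaged 9.41 ± 0.073 (SD, n = 3) on the CD73+ arrays and 8.87 ± 0.10 (SD, n = 3) on the CD73- arrays, a rise of 0.55 (standard error 0.074, adjusted p = 0.00244 from limma) or 1.46-fold (95% interval 1.30 to 1.65). The other probe sets rose by 0.56, 0.43 and 0.50, with adjusted p between 0.00333 and 0.0115 from limma. They are not independent readings, since 3 of the 4 are annotated to the same cDNA. On the brightest probe set 476 of 18193 genes had a larger rise, against 43 for Vegfd.

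Nrp2, the coreceptor that binds VEGF-C and VEGF-D in lymphatic vessels, had 7.87, 7.79 and 7.76 in CD73+ and 7.52, 7.55 and 7.53 in CD73- replicates 1 to 3 on its brightest probe set. The subgroups did not overlap there, and it rose by 0.28 (95% interval 0.14 to 0.41, adjusted p = 0.0136 from limma). The 3 other probe sets had differences of 0.13, 0.085 and 0.10, with overlapping subgroups, and the mean of its probe sets did not pass (0.15, adjusted p = 0.0923 from limma). Without CD73+ replicate 1 the brightest probe set did not pass (0.24, adjusted p = 0.0633 from limma), nor did it with the replicate number as a block (adjusted p = 0.0547 from limma).

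Some other genes followed nearly the same course over the 6 arrays as the members that passed. Likeness was measured as the root mean square difference between log2 values centred on each gene's mean. For these members it mainly reflects a like difference between the subgroups, such as -1.21 for Mx2 and 1.18 for Abi3bp. Shared regulation was not tested. Closest to Vegfc were Mx2, at 0.023, Car6, at 0.056, and Prr32, at 0.059. Closest to Vegfd were Abi3bp, at 0.023, Rgs4, at 0.036, and Glrx, at 0.053. Closest to Nrp1 were Pdlim2, Ly6e and Trabd2b, at 0.023 to 0.033, and closest to Nrp2 were Tmbim6, Igf1 and Trp53inp2, at 0.015 to 0.023.

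Lists of genes that act with the family were read in the same fit, and over their 137 measured genes 39 were higher and 15 were lower on the deposited scale, where 10.1% and 12.6% of all genes were. Among probe sets at or above the median level, fitted alone, 46 of 117 list genes were higher and 17 were lower. Of all 22519 such probe sets, 5181 were higher and 5111 were lower. The latter counts probe sets rather than genes, and the share of all genes under this filter was not computed. With arrays scaled to the poly-A controls, 136 of the 137 were higher and 0 were lower, where 44707 of all 45037 probe sets were higher and 33 were lower. The first lists concern what happens to a ligand after secretion. Of 10 measured genes of VEGF-C and VEGF-D processing, 2 were higher and none was lower. Plat, a plasminogen activator, rose by 1.23 (adjusted p = 0.0001265 from limma), at 9.63 to 9.67 in CD73+ and 8.32 to 8.49 in CD73- AD-MSCs. Ctsd, the lysosomal protease cathepsin D, rose by 0.26, a call that ended with the replicate block (adjusted p = 0.0585 from limma) and without CD73+ replicate 1 (0.0593). Furin and Pcsk7, proteases that cut the VEGF-C precursor, and Ccbe1, a cofactor of a further cleavage, did not pass, at 0.11, 0.052 and -0.068, and Adamts3, the protease that works with Ccbe1, was dimmer than all but 5.56% of probe sets.

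Of 22 genes of VEGF release and binding in the matrix, 11 were higher and 1 was lower, where 10.1% and 12.6% of all genes were. The median difference of the 22 was 0.23. Dcn, the proteoglycan decorin, rose by 1.24 on the brighter of 2 probe sets (adjusted p = 8.59e-05 from limma) and did not pass on the other. The brighter had 8.72, 8.72 and 8.80 in CD73+ and 7.53, 7.49 and 7.49 in CD73- replicates 1 to 3. Sdc1, a heparan sulfate proteoglycan of the cell surface, rose by 1.08 on the brightest of 4 probe sets, all of which passed. Ptn and Sdc4 rose by 1.06 and 0.95. Thbs1 and Thbs2, matrix proteins known as inhibitors of angiogenesis, rose by 0.27 and 0.84, and Mmp2 and Mmp14, metalloproteases, by 0.44 and 0.42. Ccn2, a matrix protein that binds VEGF-A, fell by 0.27, from 13.18 in each of CD73- replicates 1 and 2. That call ended with the replicate block (adjusted p = 0.0545 from limma) and without CD73+ replicate 1 (0.0533), and the difference was 0.66 after scaling to the poly-A controls.

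On the side of the receptors, 8 of 50 signaling genes were higher and 9 were lower, where 10.1% and 12.6% of all genes were. The median difference of the 50 was 0.017. The higher count was 5 without CD73+ replicate 2 or CD73- replicate 2, with the replicate block and with median centring. Pik3r3 and Pik3r1, regulatory subunits of PI3-kinase, rose by 0.66 and 0.65, and Pik3r1 passed on 2 of 4 probe sets. Sphk2, a sphingosine kinase, fell by 0.56 and passed on 1 of 2 probe sets. Pik3cd, a catalytic subunit of PI3-kinase, had -0.60 and passed on 1 of 6 probe sets. That call ended with a trended prior and without any of 4 single arrays (adjusted p from limma 0.05035 and 0.0710 to 0.0926). Sphk1, the other sphingosine kinase, fell by 0.46 and Src, a kinase that VEGFR-2 activates, by 0.31. Among 22 partners and phosphatases of the receptors, 5 were higher and 3 were lower, against the same shares of all genes. The higher count fell to between 1 and 3 whichever single array was left out, with 1 without CD73+ replicate 1 or 2 or CD73- replicate 1, 2 without CD73- replicate 2 and 3 without either replicate 3, and it was 2 with the replicate block. Lrp1, an endocytic receptor, rose by 0.61 and Ptprj, a phosphatase of VEGFR-2, by 0.41. Myo6, a motor that carries VEGFR-2 inwards, fell by 0.58 on 1 of 3 probe sets. Ptpn12, another phosphatase, fell by 0.30 and passed on 2 of 4 probe sets. The Myo6 call ended with the ordinary t statistic in place of limma (adjusted p = 0.0544). Another Ptprj probe set passed downwards, and the Ptprj call ended without CD73+ replicate 1 or 2 or CD73- replicate 1 or 3 (adjusted p from limma 0.0604 to 0.0824).

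The neuropilins also bind class 3 semaphorins, of which 13 genes with their plexin partners were measured. Of these 3 were higher and none was lower, where 10.1% and 12.6% of all genes were. The higher count was 1 of 13 with the replicate block and with the ordinary t statistic in place of limma. It was also 1 of 13 without any 1 array other than CD73+ replicate 3. Sema3c, a ligand of both neuropilins, rose by 0.37 (adjusted p = 0.00521 from limma) and passed on 1 of 2 probe sets. Sema3e, a ligand of plexin D1, rose by 0.31 and passed on 3 of 4. The Sema3e call ended with the replicate block (adjusted p = 0.0700 from limma) and without any 1 array other than CD73+ replicate 3 (adjusted p from limma 0.0613 to 0.107). Sema3a and Sema3f, which encode the classic ligands of Nrp1 and Nrp2, did not pass, at 0.010 and 0.19.

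Vegfa was also set beside 20 other targets of hypoxia signaling. Of these 10 were higher and 2 were lower, where 10.1% and 12.6% of all genes were. The median difference of the 20 was 0.25. Pdk1, which holds pyruvate back from mitochondria, rose by 0.93, with 8.18, 8.21 and 8.14 in CD73+ and 7.36, 7.31 and 7.08 in CD73- replicates 1 to 3, and Bnip3, a mitophagy receptor, rose by 0.80. Ndrg1 fell by 0.68 on its brightest probe set, with all 5 of its probe sets lower, and Ero1a, an oxidase of protein folding, by 0.38, although another of its 3 probe sets passed upwards. Both falls are on the deposited scale and turn after scaling to the poly-A controls.

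**Figure D3:**
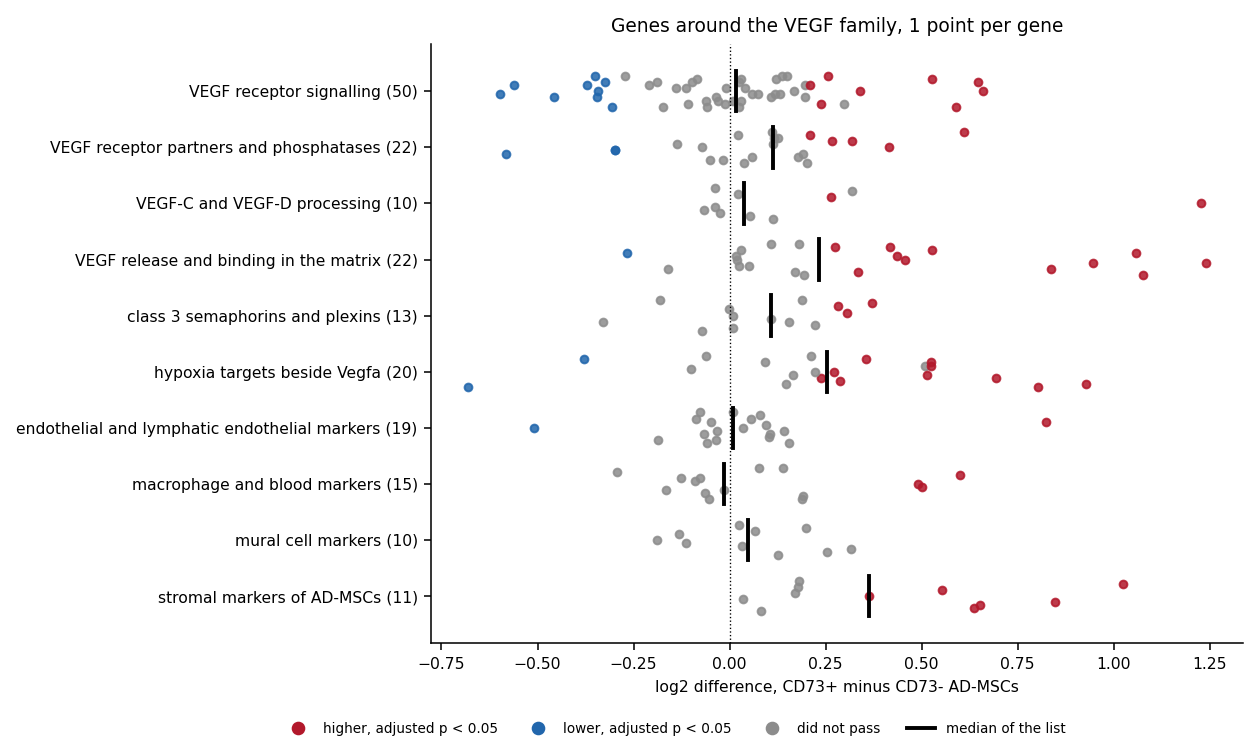
Log2 difference, CD73+ minus CD73- AD-MSCs (horizontal axis), of each measured gene of 10 lists (rows, with the number of genes), 1 point each, taken from the brightest probe set, red if higher, blue if lower and grey if it did not pass, with black bars for medians and a vertical spread within rows that has no meaning. The bar of the stromal markers lies farthest from 0, at 0.36. The bars of the matrix and hypoxia lists lie at 0.23 and 0.25, those of signaling, endothelial and macrophage genes near 0.

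On the poly-A scale, which puts the median of all probe sets at 0.93, the direction of the Vegfc difference did not turn. It was -0.24 on the brightest probe set (adjusted p = 0.0121 from limma), -0.29 on the dimmest of the 3 (adjusted p = 0.00567) and -0.14 on the remaining one, which no longer passed (adjusted p = 0.17). Vegfd then had 2.09 and Nrp1 1.47. Vegfa, Vegfb, Kdr and Flt4 had between 0.75 and 0.92 on their brightest probe sets, at or below the median of all probe sets, where the deposited scale gave -0.17 to -0.0090. On the poly-A scale 9 of the 10 members were called higher and Vegfc lower, where 44707 of all 45037 probe sets were higher and 33 were lower.

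**Figure D4:**
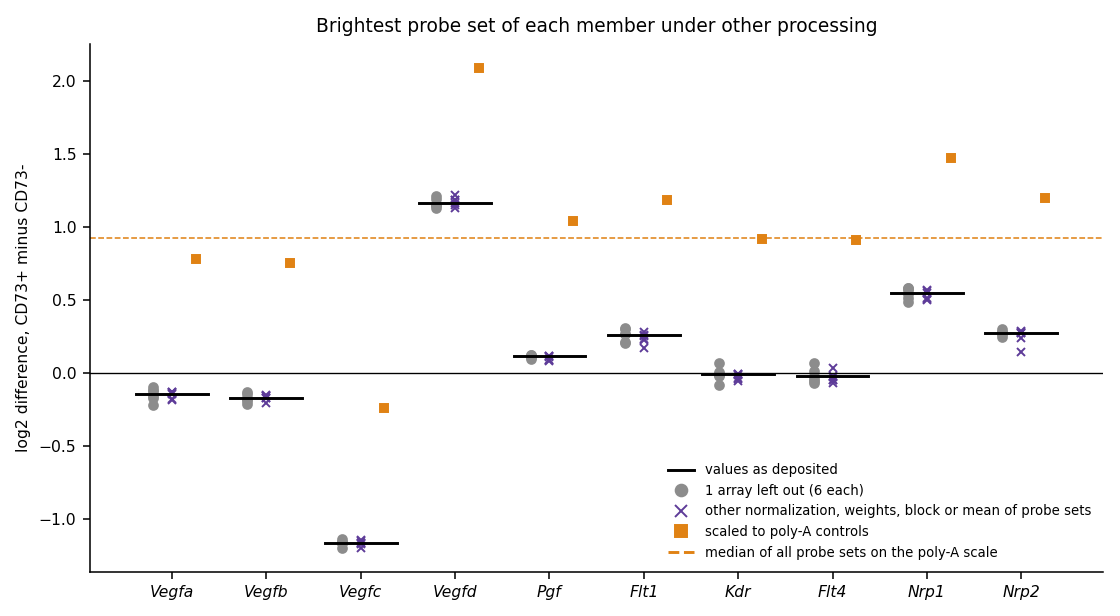
Log2 difference, CD73+ minus CD73- AD-MSCs (vertical axis), of the brightest probe set of each member (horizontal axis), as deposited (black lines), with 1 array left out (grey circles), under other normalizations, array weights, the replicate block or the mean of a gene's probe sets (crosses), and after scaling to the poly-A controls (orange squares, with the median of all probe sets at 0.93 as a dashed line). Vegfc stays below 0 and Vegfd and Nrp1 above it in every setting drawn. Vegfa and Vegfb lie above 0 only after scaling to the poly-A controls, while Kdr and Flt4 also turn when some single arrays are left out.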

How the data were processed

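RNA of 6 mouse AD-MSC samples was read on Affymetrix mouse expression arrays, 1 per sample, 3 for each of CD73+ and CD73- AD-MSCs. The deposited table holds log2 values of 45101 probe sets, made by the authors with RMA per the labels, whose version is not given in the sources used here. RMA gives the arrays nearly one distribution and compresses small ratios. No detection calls or scanner files were used here, and the number of arrays limits the precision. Without its 64 control probe sets the table has 45037, and all went into a limma 3.58.1 model (R 4.3.3) of subgroup alone, by lmFit and eBayes with no filter. P-values were adjusted over the whole table by Benjamini-Hochberg, and 0.05 was the threshold. The fit was tested on simulated data. A symbol came from the platform annotation where it was the only 1 (34945 probe sets, against 932 with several and 9160 unnamed here), checked by Entrez ID against RefSeq, and 0 symbols changed. Genes in lists were read from the brightest probe set.

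The members and the 10 lists, compiled by hand (192 of 205 entries measured), were chosen with earlier results of these data known. Named are all member probe sets, Nt5e, in each list up to 2 genes that rose most and 2 that fell most among the passing ones (otherwise the 2 smallest p), and the 3 genes most like each member that passed. Cdh5, Pecam1, Tek, Tie1, Vwf, Egfl7, Mmrn2, Ptprc, Adgre1, Csf1r, Thy1, Cd44, Itgb1, Vim, Eng, Fap, Furin, Pcsk7, Ccbe1, Adamts3, Ptn, Sdc4, Thbs1, Thbs2, Mmp2, Mmp14, Sphk1, Src, Sema3a and Sema3f were added after their values were seen. Promoter stretches came from the RefSeq table for GRCm38.p6, which matched all 10 members, and motifs were counted over 32851 windows. Some alternatives changed the normalization (quantile, cyclic loess, median centring or scaling to 12 poly-A controls). Some changed the model (replicate number as block, array weights, trended and robust prior). Others changed the probe sets (those above the median level, or the mean per gene) or the arrays (1 omitted at a time). The last changed the test, to an ordinary t statistic on each probe set in place of limma. The study's methods name no test for single probe sets. Promoter counts and plots used Python 3.11.15 and matplotlib 3.10.9.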

Additional observations from a re-analysis of the deposited data

How the results depend on the processing

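The Vegfc, Vegfd and Nrp1 probe sets kept their direction in all 15 alternatives tried. Their calls held in each, except for 1 Vegfc probe set on the poly-A scale (-0.14, adjusted p = 0.17 from limma). The other exception was the dimmest Nrp1 probe set with the ordinary t statistic in place of limma (0.50, adjusted p = 0.0681). With the replicate number as a block, 7 family probe sets were higher and 3 were lower, the brightest Nrp2 probe set being the call that was lost (adjusted p = 0.0547 from limma), and 3080 probe sets in all were higher and 2713 lower, against 4408 and 4105. The deviations of same-numbered arrays from their subgroup means correlated with r of -0.138, 0.0276 and -0.136 across probe sets. The 3 deviations within a subgroup are tied to each other. These values therefore cannot show whether a number stands for a shared animal, sort or batch. Leaving out 1 array gave 7 to 9 family probe sets higher and 3 lower, where 2794 to 4199 of all 45037 probe sets were higher and 2525 to 3907 lower. Leaving out 1 array also gave 2 to 4 members higher and 1 lower. It gave 27 to 35 genes higher and 12 to 15 lower over the pathway lists, and 4 to 6 and 1 to 2 over the markers of other cell types, the last with 2 lower without CD73+ replicate 3.

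Members lower numbered 2 with a filter at the median level and with a trended, robust prior. Markers of other cell types that were lower numbered 2 with quantile normalization, median centring, cyclic loess or array weights. They numbered 0 with the ordinary t statistic in place of limma. After scaling to the poly-A controls 22 family probe sets, 9 members, 136 pathway genes and 44 markers of other cell types were higher, with 0 pathway genes and 0 markers lower. Of all 45037 probe sets, 44707 were higher and 33 were lower on the poly-A scale. That scale turned the differences of Vegfa (0.78 and 0.80), Vegfb (0.75), Kdr (0.92), Flt4 (0.91 and 0.88), Pik3cd (0.33), Sphk2 (0.37), Myo6 (0.34), Ptpn12 (0.63), Ccn2 (0.66), Ndrg1 (0.25), Ero1a (0.55) and Lyve1 (0.42), by its construction, as all arrays of CD73+ AD-MSCs are raised. Leaving out 1 array gave -0.080 to 0.067 for Kdr, turning without CD73+ replicate 1 or CD73- replicate 1, and -0.067 to 0.066 for the brightest Flt4 probe set, turning without CD73+ replicate 3 or CD73- replicate 3, and Flt4 was also at 0.032 with array weights. The calls of Nt5e, Pik3cd, Ptprj, Sema3e, Myo6 and Lyve1 ended with the ordinary t statistic in place of limma. Its adjusted p-values for these genes were 0.127, 0.133, 0.0972, 0.0930, 0.0544 and 0.0590, in that order. Pgf passed with that statistic (adjusted p = 0.0363). The dim probe sets of Pgf, Flt4 and Nrp2, near or below the array medians, limit what differences there can show.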
